A study of Kluyveromyces lactis with 17 samples.

Results

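The genes described here form the inner border of the chromosome ends of the yeast Kluyveromyces lactis. They are the genes at ranks 16 to 30 from each of the 12 ends of its 6 chromosomes, with rank 1 nearest the end and ranks taken from the order of the systematic identifiers. Of the 180 positions, KLLA0_B14553g and KLLA0_B14575g were set aside, which left 178 genes of the 5335 in the count table. Of these, 176 are protein coding, 1 is a small nucleolar RNA and 1 is a transfer RNA. The rank rule uses position and no expression value, while the 2 genes set aside were named singly by the rule, and the choice of this class was made with earlier results of these data known.

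Poly(A)-selected RNA was sequenced from a sir2Δ strain (MATα sir2Δ hmlΔ hmrΔ) and a WT strain (MATa SIR2 hmlΔ hmrΔ). Both strains lack the silent mating-type cassettes HML and HMR. Each was grown overnight with 400 µg/L nicotinic acid in minimal glucose medium and moved for 4 h to 15, 45, 135 or 400 µg/L. Each of the 8 groups had 2 replicates, and the series text calls them independent. A difference between the strains is a difference of SIR2 and of mating type together, and each genotype is represented by 1 strain.

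Sir2 is a histone deacetylase that uses NAD+ as a co-substrate and helps to keep genes near chromosome ends silent in budding yeasts. K. lactis takes up nicotinic acid and makes NAD+ from it, so the vitamin supply sets how much co-substrate the cell can make. Silencing in budding yeasts is known to be strongest close to the telomere and to weaken towards the chromosome interior, where ordinary housekeeping genes take over. The border genes include both kinds of neighbour: metabolic genes and genes without a common name on one hand, and genes for making ribosomes, proteasomes and transfer RNA on the other.

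Total counts were 24663143 to 38246270 reads per library, with a median of 33734530, and the border genes took 2.21% to 2.38% of the reads in sir2Δ libraries and 2.31% to 2.57% in WT libraries. A count of 0 allows up to 3 reads, or 0.0755 to 0.129 CPM (read counts scaled to a common library total), a limit that covers counting error only. The deleted gene SIR2 (KLLA0_F14663g) had 0.687 to 2.64 CPM in the 8 sir2Δ replicates and 128 to 145 CPM in the 8 WT replicates. WT at 400 µg/L has an extra library: libraries 1 and 1R carry the same number and were summed into 1 replicate beside library 2. Library 1 stood apart: its log2 CPM correlated with those of 1R and 2 at r = 0.965 and 0.967 across the border genes, which are not independent replicates, while 1R and 2 had r = 0.997. Relative to the average of 1R and 2, the border genes in library 1 lay at a median log2 difference of 0.48 for the shortest of 3 length classes and -0.28 for the longest. The part of this difference in the comparisons was not tested directly, and values without library 1 or 1R are given beside several of the results that they moved.

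Of the 178 border genes, 177 were tested. The other gene, the transfer RNA gene KLLA0_F27731r at rank 17 of the high-numbered end of chromosome F, had 4 reads in all libraries together. The small nucleolar RNA gene SNR64 had 112 reads in all and was called in no comparison. The border genes were ordinary in level. Their protein-coding members had a median of 42.6 CPM per kilobase of coding length in WT (quartiles 25.2 and 91.1), beside 43.1 for all 5084 protein-coding genes. A common symbol was given for 73.3% of them and for 78% of all protein-coding genes.

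The border genes had calls in both directions between the strains with the most nicotinic acid. A gene is called here at an adjusted p under 0.05 in edgeR's quasi-likelihood test, after Benjamini-Hochberg adjustment across all 5224 genes tested. With 400 µg/L nicotinic acid, 45 of the 177 border genes were called higher and 38 lower in sir2Δ than in WT. Of all genes tested, 22.5 percent were called higher and 22.3 percent lower. In either direction, 46.9% of the border genes and 44.7 percent of all genes were called. The median log2 fold change was 0.04 for the border genes and -0.01 for all genes. With upper-quartile scaling, which moved the median of all genes to -0.11, the split became 35 higher and 53 lower, beside 16.3 percent and 30.6 percent of all genes.

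Genes nearer to the ends gave other counts. At ranks 1 to 5, 49 of 60 tested genes were called higher and 3 lower, with a median log2 fold change of 1.86. At ranks 6 to 15, 61 of 118 were called higher and 13 lower, with a median of 0.39. Within the border the counts were 15 higher and 12 lower of 57 at ranks 16 to 20, 14 and 16 of 60 at ranks 21 to 25, and 16 and 10 of 60 at ranks 26 to 30. The medians of these 3 classes were 0.00, 0.04 and 0.04. The next genes inward, at ranks 31 to 60, had 70 higher and 71 lower of 352 and a median of -0.02. These classes are described without a test of their difference.

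**Figure D1:**
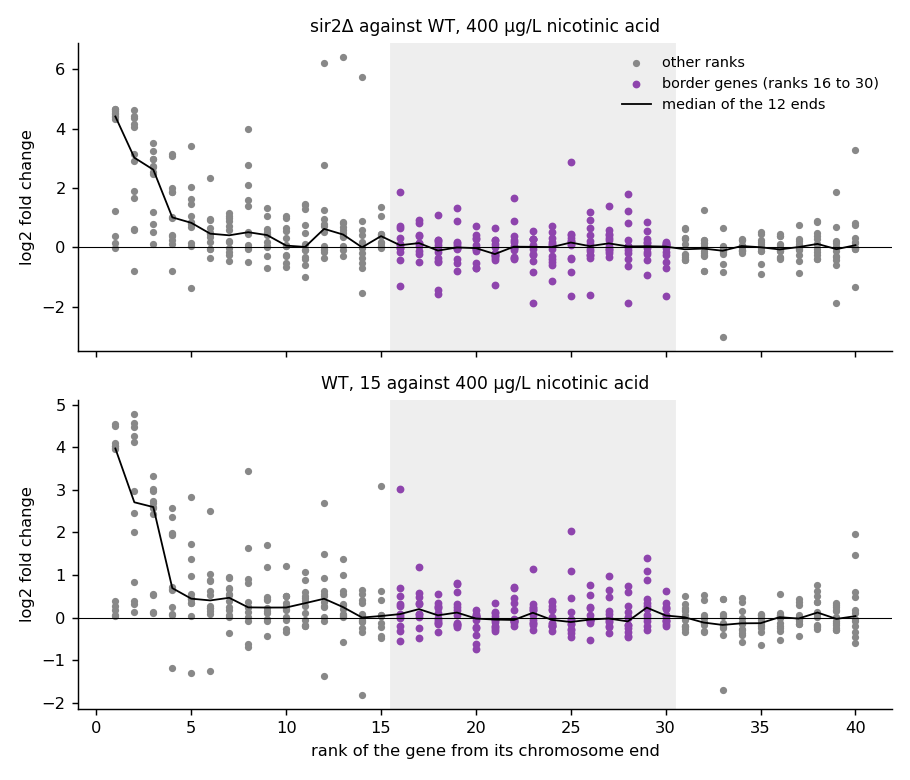
Log2 fold change of each gene (vertical axis) by its rank from the chromosome end (horizontal axis), for sir2Δ against WT at 400 µg/L (top) and for WT at 15 against 400 µg/L (bottom). Each dot is 1 gene, purple dots in the shaded band are the border genes, and the line is the median of the 12 ends at each rank. The line is high at the outermost ranks and near 0 across the band, where single genes reach 2.88 in the top panel and 3.02 in the bottom panel.

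At the outer edge of the window, rank 15 held called genes such as GUT2 (log2 fold change 1.06 ± 0.07 SE in sir2Δ against WT at 400 µg/L) and KLLA0_C19085g (1.35 ± 0.09). Just inside it, rank 16 held KLLA0_B00517g (1.87 ± 0.11) and ECM1 (-1.30 ± 0.14). At the inner edge, rank 30 held RIX7 at -1.65 ± 0.14, and the 12 genes at rank 31 lay between -0.44 and 0.64. The genes named here are the extremes of their ranks. At rank 15, 5 genes were called higher and 0 lower of 11 tested, and at rank 16, 4 and 2 of 11. At rank 30 the calls were 0 higher and 3 lower of 12, and at rank 31 they were 5 and 5 of 12. The shares of all genes were 22.5 percent and 22.3 percent.

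Single genes within the class differed strongly between the strains. In RNA from whole cultures, a lower level in every cell and fewer cells with the transcript cannot be told apart. At 400 µg/L, 9 border genes were called higher in sir2Δ by at least 1 log2 unit, or 5.08% of those tested, beside 4.52 percent of all genes. Another 10 were called lower by at least 1 log2 unit, or 5.65%, beside 4.65 percent of all genes. Of the 9 that were higher, 8 have no common symbol in the reference table, beside 157 of the 236 genes higher by as much in the genome. Of the 10 that were lower, 9 have one, beside 216 of 243 in the genome.

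KLLA0_C00671g, at rank 25 of the low-numbered end of chromosome C, had the highest fold change. It had 46.2 and 55.4 CPM in sir2Δ at 400 µg/L, against 6.98 and 6.77 CPM in WT at 400 µg/L. In sir2Δ it stayed between 38.4 and 55.4 CPM at every level of the vitamin. In WT it had 27.4 and 29.0 CPM at 15 µg/L, 14.6 and 11.1 CPM at 45 µg/L and 5.75 and 7.55 CPM at 135 µg/L. Every sir2Δ replicate was above every WT replicate, and the WT replicates came nearest at 15 µg/L. The fold change in sir2Δ at 400 µg/L was 7.38-fold, or 2.88 ± 0.18 on the log2 scale (edgeR, adjusted p = 1.525e-09), and it came to 0.68 ± 0.16 at 15 µg/L.

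KLLA0_B00517g, at rank 16 of the low-numbered end of chromosome B, showed a crossing pattern. It had 29.1 and 25.6 CPM in sir2Δ at 400 µg/L, against 7.41 and 7.63 CPM in WT (log2 fold change 1.87 ± 0.11, edgeR adjusted p = 8.598e-10). At 15 µg/L it had 52.4 and 47.6 CPM in sir2Δ, against 61.0 and 60.6 CPM in WT (-0.28 ± 0.10). The strain order was therefore opposite at the extremes of the vitamin range. At 45 µg/L it had 35.5 and 36.3 CPM in sir2Δ, against 14.9 and 16 CPM in WT, and at 135 µg/L it had 24.5 and 28.1 CPM in sir2Δ, against 9.18 and 9.74 CPM in WT. Its outer neighbour at rank 15, ARO5, also rose in WT at 15 µg/L, by 3.1 ± 0.10 on the log2 scale, while its difference between sir2Δ and WT at 400 µg/L was 0.45 ± 0.10.

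KLLA0_E24443g, at rank 28 of the high-numbered end of chromosome E, differed between the strains at all levels and did not pass the test in any comparison of vitamin levels made here. It had 13.0 and 12.6 CPM in sir2Δ at 400 µg/L, against 4.58 and 2.59 CPM in WT. At 15 µg/L it had 8.51 and 10.6 CPM in sir2Δ, against 2.61 and 3.23 CPM in WT. This gave a log2 fold change of 1.80 ± 0.27 with the most vitamin (edgeR, adjusted p = 4.875e-05) and 1.71 ± 0.29 with the least (adjusted p = 0.0003006). The sir2Δ replicates at 8.38 CPM or more did not overlap with the WT replicates at 4.58 CPM or less.

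KLLA0_C18931g, at rank 22 of the high-numbered end of chromosome C, had 32.2 and 33.4 CPM in sir2Δ at 400 µg/L, against 9.92 and 11 CPM in WT (log2 fold change 1.65 ± 0.12, edgeR adjusted p = 1.273e-08). Its values at 15 µg/L were 30.9 and 31.1 CPM in sir2Δ, against 19.1 and 15.5 CPM in WT (log2 fold change 0.84 ± 0.12). The sir2Δ replicates were nearly level across the vitamin range and lay above all WT replicates. KLLA0_D00506g, at rank 19 of the low-numbered end of chromosome D, had 15.4 and 18.8 CPM in sir2Δ at 400 µg/L, against 7.43 and 6.13 CPM in WT (1.32 ± 0.16). Its difference at 15 µg/L was smaller, with 16.7 and 17.8 CPM in sir2Δ against 12.1 and 11.9 CPM in WT (0.53 ± 0.16). That call was lost when any 1 of the 4 replicates compared was left out. It was also lost without library 1R of WT at 400 µg/L, which enters only the shared estimate of spread and the scaling.

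The remaining genes with a large rise were neighbours. KLLA0_D00660g, KLLA0_D00682g and KLLA0_D00704g sit side by side at ranks 26 to 28 of the low-numbered end of chromosome D. At 400 µg/L, KLLA0_D00660g had 23.1 and 27.0 CPM in sir2Δ, against 11.7 and 10.1 CPM in WT (log2 fold change 1.19 ± 0.19). KLLA0_D00682g had 41.0 and 44.9 CPM in sir2Δ, against 17.4 and 15.0 CPM in WT (1.40 ± 0.10). KLLA0_D00704g had 122 and 131 CPM in sir2Δ, against 60.7 and 47.6 CPM in WT (1.22 ± 0.11). No replicate of WT at 400 µg/L reached a replicate of sir2Δ at 400 µg/L in any of these 3 genes. The same 3 were called higher in WT at 15 than at 400 µg/L, by 0.77 ± 0.19, 0.97 ± 0.10 and 0.74 ± 0.11, a comparison that shares the WT replicates at 400 µg/L with the first. The WT call of KLLA0_D00660g was lost when library 1R was left out (0.55, adjusted p = 0.112 by edgeR).

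**Figure D2:**
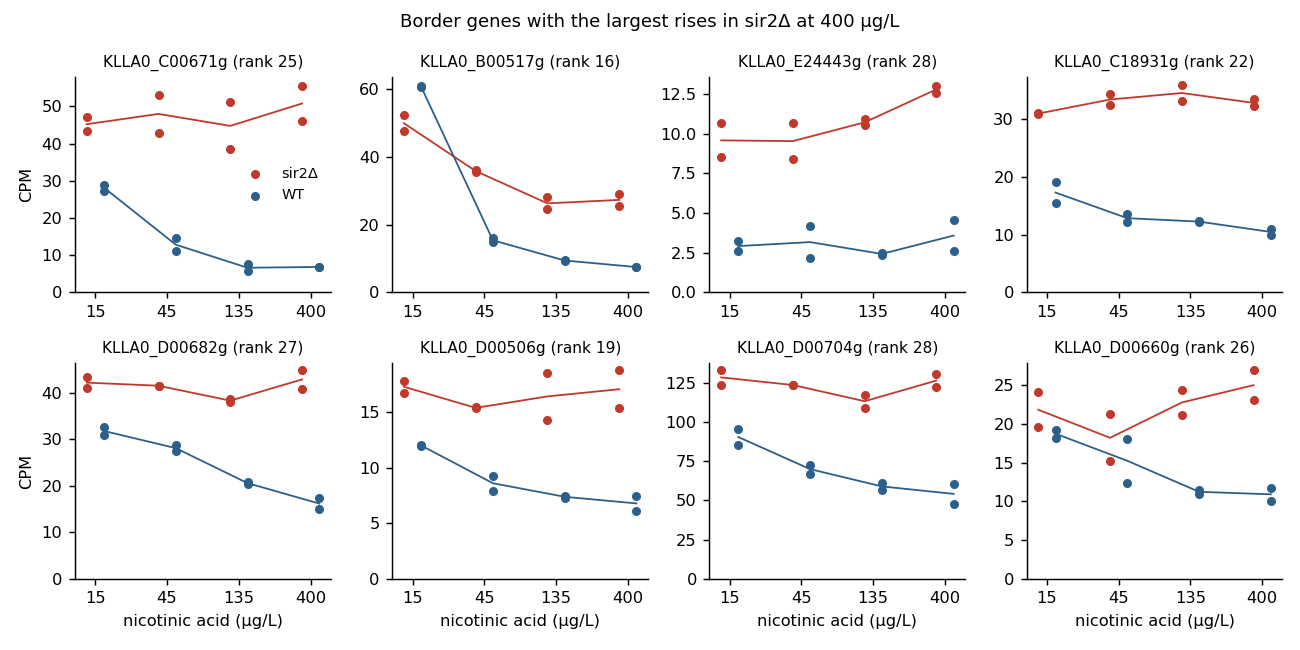
CPM (vertical axes, from 0) by nicotinic acid level in µg/L (horizontal axes, low to high) for the 8 border genes with the highest fold changes among genes without a symbol, sir2Δ in red and WT in blue. Dots are replicates, 2 per group, and lines join the group means. The sir2Δ dots lie above the WT dots at 400 µg/L in all 8 genes, and KLLA0_B00517g has the opposite order at 15 µg/L.

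Other runs of at least 3 adjacent border genes were called in 1 direction at 400 µg/L. At ranks 24 to 26 of the low-numbered end of chromosome C, KLLA0_C00649g (log2 fold change 0.51), KLLA0_C00671g (2.88) and KAR4 (0.92) were all higher in sir2Δ, and all 3 were also higher in WT at 15 than at 400 µg/L (0.37, 2.03 and 0.52). At ranks 25 to 29 of the high-numbered end of chromosome E, UMP1, SWD3, MSD1, KLLA0_E24443g and KLLA0_E24421g were higher in sir2Δ, by 0.24 to 1.80. At ranks 18 to 20 of the low-numbered end of chromosome A, PCK1, KLLA0_A00506g and KLLA0_A00528g were higher, by 0.41 to 1.10. A run of lower genes lay at ranks 16 to 19 of the low-numbered end of chromosome C and held VAC17, MRC1, KRR1 and ADF1, at -0.43, -0.49, -1.45 and -0.81. These runs were read off after the values were seen, and no test of clustering was made.

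Among the border genes with a known enzyme, PCK1 encodes phosphoenolpyruvate carboxykinase, which starts gluconeogenesis and is known in yeasts to be repressed by glucose. PCK1 had 243 and 241 CPM in sir2Δ at 400 µg/L, against 95.7 and 130 CPM in WT (log2 fold change 1.10 ± 0.15, edgeR adjusted p = 1.928e-05). At 15 µg/L it had 112 and 112 CPM in sir2Δ, against 84.8 and 93.2 CPM in WT (0.33 ± 0.15, not called). Within sir2Δ its level at 15 against 400 µg/L fell by 1.12 ± 0.15 on the log2 scale (edgeR, adjusted p = 9.202e-05), through 142 and 120 CPM at 45 µg/L and 198 and 191 CPM at 135 µg/L. The corresponding WT difference of -0.34 ± 0.15 was not called, and the interaction of -0.78 ± 0.21 was.

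GDH3, a glutamate dehydrogenase gene of ammonium assimilation, was higher in sir2Δ at all 4 levels, with 1183 to 1555 CPM in the 8 sir2Δ replicates and 629 to 877 CPM in the 8 WT replicates. Its log2 fold changes were 0.88 ± 0.10 at 15, 0.86 ± 0.10 at 45, 1.08 ± 0.10 at 135 and 0.72 ± 0.10 at 400 µg/L. UBI4, which encodes polyubiquitin, was called higher in sir2Δ at each level, by 0.72, 0.90, 0.36 and 0.41 from 15 to 400 µg/L. UMP1, a proteasome assembly factor in S. cerevisiae, was called higher at each level by 0.36 to 0.56, and RPN9, a subunit of the proteasome lid, at 15, 45 and 135 µg/L by 0.37 to 0.52. These 3 were picked out after their values were seen, and other border genes linked to ubiquitin or the proteasome in S. cerevisiae were not called at 400 µg/L, such as MET30 (-0.20), SSM4 (-0.06), DOA1 (0.09) and ECM29 (0.09). The autophagy gene ATG4 was also called higher at all 4 levels, by 0.40 to 0.82, while ATG10 (0.90 ± 0.20 at 400 µg/L) did not pass the test between the strains at the other 3 levels.

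KAR4, a transcription factor of mating in S. cerevisiae, had 39.5 and 42.4 CPM in sir2Δ at 400 µg/L, against 24.1 and 18.9 CPM in WT (log2 fold change 0.92 ± 0.12). At 15 µg/L the strains had 34.4 and 34.8 CPM in sir2Δ, against 29.8 and 32.3 CPM in WT (0.16 ± 0.12, not called). The strains differ in mating type, which cannot be told apart from the loss of SIR2 here. CAR1, the arginase gene, was called higher in sir2Δ at 15 µg/L (0.53 ± 0.12), 45 µg/L (0.38 ± 0.12) and 135 µg/L (0.40 ± 0.12), with 0.12 ± 0.12 at 400 µg/L.

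A further 3 border genes without a symbol were called higher in sir2Δ at all 4 levels. KLLA0_F00506g had 1260 to 1489 CPM in the 8 sir2Δ replicates and 652 to 775 CPM in the 8 WT replicates, with log2 fold changes of 0.80 to 0.93. KLLA0_C18887g had 1928 to 2197 CPM in sir2Δ replicates and 1142 to 1410 CPM in WT replicates, with log2 fold changes of 0.57 to 0.72. KLLA0_A00506g had 16.6 to 22.0 CPM in sir2Δ replicates and 9.70 to 14.9 CPM in WT replicates, with log2 fold changes of 0.51 to 0.88. In these 3 genes the strains did not overlap. The call of KLLA0_A00506g at 15 µg/L (0.64 ± 0.17) was lost without replicate 8 of WT at 15 µg/L (0.36). It was also lost without replicate 8 of sir2Δ at 15 µg/L (0.62). Without replicate 7 of WT the value was 0.98.

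The genes with the lowest fold changes in sir2Δ at 400 µg/L are given with their roles in S. cerevisiae. The roles were looked up after the values were seen, so they are no list and carry no test. Ribosome making, in which rRNA is cut, modified and packed with proteins in the nucleolus, recurs among them. Genes of that process farther inward were low too, such as RRP12 at rank 39 (log2 fold change -1.86) and UTP23 at rank 40 (-1.33). The direction is therefore not shown to be particular to the border. Not all border genes of that process had this direction. JJJ1, a chaperone partner of the large subunit, was called higher in sir2Δ at 400 µg/L (log2 fold change 0.42 ± 0.13) and at 135 µg/L (0.46 ± 0.13), and SQS1, a partner of PRP43, was at -0.06 ± 0.09 at 400 µg/L and was not called. DIM1, an 18S rRNA dimethyltransferase, had 10.6 and 12 CPM in sir2Δ at 400 µg/L, against 43.3 and 39.8 CPM in WT. Its log2 fold change was -1.88 ± 0.12 (edgeR, adjusted p = 3.06e-09). SPB1, an rRNA methyltransferase of the large subunit, had 23.8 and 24.5 CPM in sir2Δ, against 79.9 and 97.3 CPM in WT (-1.87 ± 0.11, edgeR adjusted p = 8.57e-10). In both genes the highest of all 8 sir2Δ replicates was below the lowest WT replicate.

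RIX7, an AAA ATPase of large-subunit maturation, had 13.4 and 15.4 CPM in sir2Δ at 400 µg/L, against 39.4 and 50.9 CPM in WT (log2 fold change -1.65 ± 0.14). ESF2, a small-subunit processing factor, had 10.5 and 9.65 CPM in sir2Δ, against 31.3 and 31.1 CPM in WT (-1.63 ± 0.13). NOG2, a GTPase of the large subunit, had 37.2 and 38.2 CPM in sir2Δ, against 112 and 115 CPM in WT (-1.58 ± 0.08). The replicates of these 3 genes lay close together within each strain relative to the gap between strains. PRP43, an RNA helicase of both splicing and ribosome assembly, had 28.9 and 39.8 CPM in sir2Δ, against 91.6 and 113 CPM in WT (-1.57 ± 0.14). KRR1, a small-subunit assembly factor, had 22.8 and 22.6 CPM in sir2Δ, against 65.8 and 57.9 CPM in WT (-1.45 ± 0.11). ECM1, which takes part in export of the large subunit, had 10.9 and 10.5 CPM in sir2Δ, against 29.2 and 23.3 CPM in WT (-1.30 ± 0.14).

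Other genes of RNA synthesis, RNA processing or translation were lower too. RPC31, a subunit of RNA polymerase III, had 11.4 and 12.7 CPM in sir2Δ at 400 µg/L, against 28.9 and 24.1 CPM in WT (log2 fold change -1.14 ± 0.17). GRC3, a polynucleotide kinase of rRNA processing, was at -0.92 ± 0.15, and NCS6, which modifies transfer RNA by thiolation, was at -0.84 ± 0.11. TIF35, a subunit of translation initiation factor 3, was called lower at all 4 levels, by -0.58 to -0.27. Other border genes that act on RNA were not called at 400 µg/L, such as the splicing genes SMB1 (0.08 ± 0.11) and YSF3 (-0.06 ± 0.22) and the deadenylase gene POP2 (0.03 ± 0.09).

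**Figure D3:**
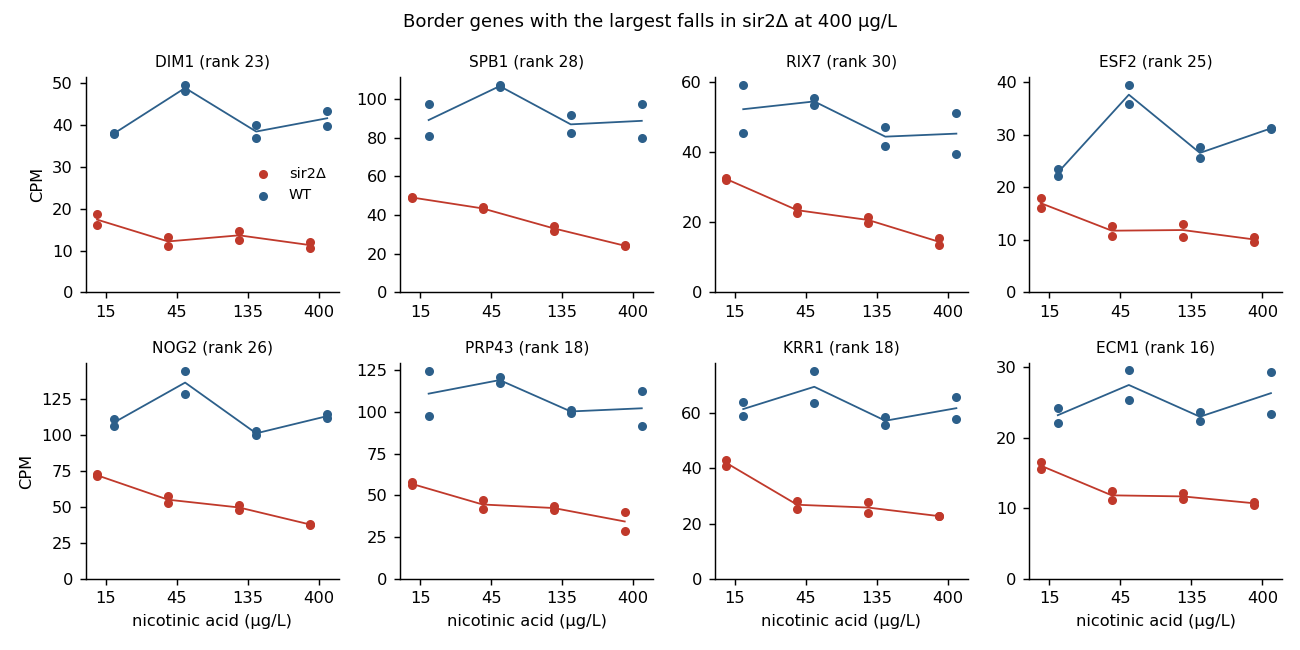
CPM (vertical axes, from 0) by nicotinic acid level in µg/L (horizontal axes, low to high) for the 8 border genes with the lowest fold changes in sir2Δ at 400 µg/L, sir2Δ in red and WT in blue. Dots are replicates, 2 per group, and lines join the group means. The sir2Δ dots lie below the WT dots at every level in all 8 genes, and the sir2Δ means at 15 µg/L are above those at 400 µg/L.

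Further genes were lower. KLLA0_D00550g, which has no symbol, had 215 and 201 CPM in sir2Δ at 400 µg/L, against 485 and 517 CPM in WT (log2 fold change -1.27 ± 0.09), and it was called lower at all 4 levels. YHB1, a flavohemoglobin that detoxifies nitric oxide, had 134 and 125 CPM in sir2Δ at 45 µg/L, against 364 and 416 CPM in WT (-1.59 ± 0.09, edgeR adjusted p = 1.387e-09), and it was called lower at the other levels by -0.98 to -0.58. MRC1, a mediator of the DNA replication checkpoint, was lower at all 4 levels by -0.74 to -0.39. ECM31, an enzyme of pantothenate synthesis, was lower at all 4 levels by -0.98 to -0.47.

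Across the 4 levels, 13 border genes were called higher in sir2Δ at every level and 17 were called lower at every level. That is 7.34% and 9.6% of those tested, beside 7.60 percent and 8.35 percent of all genes. In 15 border genes all 8 sir2Δ replicates lay above all 8 WT replicates and in 18 all lay below, beside 9.13 percent and 9.69 percent of all genes. These shares were within 2 percentage points of those of all genes.

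The counts at the middle levels were similar in kind. At 135 µg/L, 31 border genes were called higher and 28 lower in sir2Δ, beside 16.5 percent and 15.3 percent of all genes, or 33.3% in either direction beside 31.8 percent. By at least 1 log2 unit, 7 were higher and 9 lower, beside 3.68 percent and 2.70 percent of all genes. KLLA0_C00671g (log2 fold change 2.75 ± 0.18) and KLLA0_E24443g (2.14 ± 0.29) led the higher genes, and DIM1 (-1.49 ± 0.12) and SPB1 (-1.39 ± 0.11) the lower ones. At 45 µg/L, 38 were called higher and 32 lower, beside 20.9 percent and 18.7 percent of all genes, and in either direction 39.5% of border genes beside 39.6 percent. By at least 1 log2 unit, 4 were higher and 11 lower, beside 3.41 percent and 4.04 percent of all genes. KLLA0_C00671g (1.90 ± 0.17) was the highest and DIM1 (-2.0 ± 0.12) the lowest.

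At 15 µg/L, 21 border genes were called higher in sir2Δ and 37 lower, beside 14.7 percent and 16 percent of all genes. In either direction this was 32.8% of border genes and 30.7 percent of all genes. Only KLLA0_E24443g was called higher by at least 1 log2 unit, beside 1.47 percent of all genes. KLLA0_B14498g (-1.22 ± 0.14) and DIM1 (-1.13 ± 0.12) were called lower by at least 1 log2 unit, beside 1.07 percent of all genes. PRP43, SPB1 and RIX7 were called lower, with log2 fold changes of -0.96, -0.86 and -0.69. KLLA0_D00550g (-0.93), MRC1 (-0.73) and KLLA0_E00529g (-0.61) were lower too, and the calls of KLLA0_B14531g (-0.65) and GRC3 (-0.61) were lost without single replicates. BNI4, a scaffold protein of the bud neck in S. cerevisiae, was at -0.61 ± 0.12, and FIR1, linked to mRNA 3′ end formation there, at -0.62 ± 0.10. At ranks 16 to 20 the calls were 7 higher and 15 lower of 57. At ranks 21 to 25 they were 6 higher and 8 lower of 60, and at ranks 26 to 30 they were 8 higher and 14 lower of 60.

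KLLA0_B14498g, at rank 19 of the high-numbered end of chromosome B, differed between the strains except at the top vitamin level. At 15 µg/L it had 880 and 762 CPM in sir2Δ, against 2043 and 1784 CPM in WT. At 400 µg/L it had 1184 and 1031 CPM in sir2Δ, against 1010 and 1203 CPM in WT (log2 fold change 0.00 ± 0.14). The WT replicates at 45 and 135 µg/L had 2199 to 2358 CPM, so the WT replicates at 400 µg/L were the low ones. Within that group, library 1 had 606 CPM, library 1R had 1359 CPM and library 2 had 1209 CPM when scaled separately. WT at 15 against 400 µg/L gave 0.79 ± 0.14, with 0.58 without library 1 and 1.08 without library 1R. The interaction of -1.22 ± 0.20 became -1.02 without library 1 and -1.52 without library 1R. All 4 of these values were called.

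In WT, more border genes were higher than lower with scarce nicotinic acid. At 15 against 400 µg/L, 40 border genes were called higher and 13 lower, beside 15.8 percent and 10.3 percent of all genes. In either direction this was 29.9% of border genes and 26.1 percent of all genes. The median log2 fold change was near 0 in each border class, at 0.04 for ranks 16 to 20, -0.04 for ranks 21 to 25 and -0.00 for ranks 26 to 30, beside 1.56 at ranks 1 to 5 and 0.26 at ranks 6 to 15. With upper-quartile scaling the split was 34 higher and 20 lower, beside 14.3 percent of all genes in each direction. By at least 1 log2 unit, 7 were called higher, beside 3.85 percent of all genes, and 0 were called lower, beside 0.325 percent.

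The 7 were KLLA0_B00517g, KLLA0_C00671g, KLLA0_E24421g, KLLA0_E24685g, HOM3, KLLA0_F00792g and TRP3. KLLA0_B00517g rose 8.09-fold, or 3.02 ± 0.11 on the log2 scale (edgeR, adjusted p = 3.884e-12), and KLLA0_C00671g rose 4.09-fold, or 2.03 ± 0.18 (adjusted p = 1.725e-07). Only these 2 were higher by at least 1 log2 unit both here and in sir2Δ against WT at 400 µg/L, comparisons that share the WT replicates at 400 µg/L. KLLA0_E24421g had 97.3 and 85.8 CPM at 15 µg/L, 60.2 and 59.0 CPM at 45 µg/L and 38.1 and 37.8 CPM at 135 µg/L, against 31.9 and 37.5 CPM at 400 µg/L (1.40 ± 0.10). It was a graded rise, with no overlap between 15 or 45 µg/L and 400 µg/L.

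Genes of amino acid synthesis were among those that rose in WT at the lowest vitamin level. They were grouped after their values were seen, and the glutamate dehydrogenase gene GDH3 was at a log2 fold change of 0.03 in this comparison. HOM3, the aspartate kinase at the head of threonine and methionine synthesis, had 397 and 379 CPM at 15 µg/L, 186 and 189 CPM at 45 µg/L and 174 and 178 CPM at 135 µg/L, against 178 and 174 CPM at 400 µg/L. Its log2 fold change at 15 µg/L was 1.14 ± 0.07 (edgeR, adjusted p = 1.06e-09). TRP3, an enzyme of tryptophan synthesis, had 169 and 171 CPM at 15 µg/L and 84.4 and 87.9 CPM at 45 µg/L, against 79.3 and 79.0 CPM at 400 µg/L (1.10 ± 0.07, edgeR adjusted p = 7.148e-09). HIS1, the first enzyme of histidine synthesis, had 287 and 299 CPM at 15 µg/L, against 211 and 176 CPM at 400 µg/L (0.60 ± 0.08). In HOM3 and TRP3 the replicates at 45 and 135 µg/L stayed near those at 400 µg/L. KLLA0_E24685g likewise had 44.8 and 46.0 CPM at 15 µg/L and 17.2 to 27.1 CPM at the higher levels.

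HOM3 and TRP3 rose less in sir2Δ than in WT. HOM3 had 303 and 305 CPM at 15 µg/L, against 215 and 216 CPM at 400 µg/L in sir2Δ (log2 fold change 0.50 ± 0.06), and the difference between the strains' changes was -0.64 ± 0.09. TRP3 had 133 and 147 CPM at 15 µg/L, against 96.0 and 100 CPM at 400 µg/L in sir2Δ (0.51 ± 0.07), with a difference of -0.59 ± 0.10. HIS1 rose by 0.42 ± 0.08 in sir2Δ, and its difference of -0.17 ± 0.12 was not called. HOM3 and TRP3 were called higher in sir2Δ than in WT at 45, 135 and 400 µg/L, by 0.29 to 0.63, and lower at 15 µg/L, at -0.35 ± 0.06 and -0.28 ± 0.07.

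Of the 40 border genes that rose in WT at 15 µg/L, 19 had higher WT means at every step down from 400 µg/L, or 47.5%, beside 48.5% of the 823 genes that rose in all. At 45 against 400 µg/L, 15 were called higher and 7 lower in WT, beside 7.20 percent and 3.46 percent of all genes, and upper-quartile scaling gave 12 and 9, beside 5.88 percent and 4.61 percent. All calls together were 12.4% of border genes, beside 10.7 percent of all genes. KLLA0_B14498g (log2 fold change 1.04 ± 0.14), KLLA0_B00517g (1.04 ± 0.11) and KLLA0_C00671g (0.90 ± 0.18) led them, and the first 2 were the only ones at 1 log2 unit or more, beside 1.36 percent of all genes. KLLA0_B14498g was at 0.83 without library 1, and so under 1, and at 1.33 without library 1R. By as much, 0 were lower, beside 0.153 percent. The lowest were IMP21 (-0.42), DPC25 (-0.39), SLM5 (-0.39), UBI4 (-0.37) and RRD1 (-0.35), and all 5 of these calls were lost without replicate 6 of WT at 45 µg/L. UBI4 was then at -0.24, and DPC25 came to -0.22 without replicate 1 of WT at 400 µg/L. At 135 against 400 µg/L, 4 were called higher and 2 lower, beside 2.22 percent and 0.861 percent, or 3.39% in either direction beside 3.08 percent. By at least 1 log2 unit, 1 was higher and 0 lower, beside 0.211 percent and 0.0191 percent. The highest were KLLA0_B14498g (1.09 ± 0.14, with 0.88 without library 1 and 1.38 without library 1R) and PHR1, a photolyase that repairs ultraviolet damage in DNA (0.60 ± 0.08). The calls of KLLA0_F00528g (0.38), KLLA0_C19019g (0.31), SLM5 (-0.34) and KLLA0_D00550g (-0.38) were each lost when 1 of several replicates was left out. Without library 1R the calls of KLLA0_C19019g, SLM5 and KLLA0_D00550g were lost, and without library 1 those of KLLA0_F00528g and SLM5.

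The border genes that fell in WT at 15 µg/L moved less. YHB1 had 212 and 197 CPM at 15 µg/L, against 338 and 339 CPM at 400 µg/L (log2 fold change -0.73 ± 0.09, edgeR adjusted p = 1.091e-05), while its 45 and 135 µg/L replicates had 332 to 416 CPM. GUS1, a glutamyl-tRNA synthetase, had 210 and 218 CPM at 15 µg/L, against 287 and 301 CPM at 400 µg/L (-0.46 ± 0.07). IMP21 (-0.55 ± 0.10), SLM5, a mitochondrial asparaginyl-tRNA synthetase (-0.51 ± 0.09), RRD1 (-0.47 ± 0.10) and the sorting nexin gene SNX41 (-0.44 ± 0.09) followed. The calls of ESF2 (-0.45), DPC25 (-0.40), NUC1 (-0.32), RPN9 (-0.29), KLLA0_D00550g (-0.27) and the Hsp110 chaperone gene SSE2 (-0.32) were each lost when at least 1 replicate was left out. Without replicate 1 of WT at 400 µg/L, DPC25, NUC1 and RPN9 were at -0.23, -0.19 and -0.18, and KLLA0_D00550g and SSE2 were at -0.17 and -0.22 without library 1R. DPC25 was at -0.24 without replicate 7 of WT at 15 µg/L. Of the 13 that fell, 6 had lower means at every step down, or 46.2%, beside 44.3% of the 539 genes that fell in all.

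In sir2Δ, 20 border genes were called higher and 10 lower at 15 than at 400 µg/L, beside 11.6 percent and 6.09 percent of all genes, and upper-quartile scaling gave 26 and 5, beside 14.9 percent and 3.75 percent. In either direction this was 16.9% of border genes and 17.6 percent of all genes. By at least 1 log2 unit, 2 were higher and 1 lower, beside 1.09 percent and 0.364 percent of all genes. RIX7 and SPB1 had the highest fold changes. RIX7 had 32.6 and 32 CPM at 15 µg/L, 22.6 and 24.3 CPM at 45 µg/L and 19.7 and 21.6 CPM at 135 µg/L, against 13.4 and 15.4 CPM at 400 µg/L (log2 fold change 1.17 ± 0.14, edgeR adjusted p = 3.954e-05). SPB1 had 49.3 and 48.9 CPM at 15 µg/L, against 23.8 and 24.5 CPM at 400 µg/L (1.02 ± 0.11). NOG2, KRR1, NCS6, ESF2, PRP43 and DIM1 rose by 0.93, 0.89, 0.89, 0.75, 0.73 and 0.62. KLLA0_B00517g rose by 0.87, and KLLA0_E24685g by 0.54. The call of KLLA0_E24685g was lost when any 1 of the 4 replicates, or library 1R of WT at 400 µg/L, was left out. The rise of RPC31 (0.82) became 0.54 without replicate 8 of sir2Δ at 15 µg/L (adjusted p = 0.0846 by edgeR), and the call of ECM1 (0.58) was also lost without single replicates. JJJ1 (-0.11 ± 0.13) and SQS1 (-0.06 ± 0.09) were not called. Replicate 8 is one of the libraries that carry the prefix RESUB in the labels, which do not say what it means.

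PCK1 led the falls in sir2Δ, as given above, followed by YHB1 (log2 fold change -0.61 ± 0.09) and IMP21 (-0.47 ± 0.10). The other 7 called lower were SWD3 (-0.45), KLLA0_B14498g (-0.43), RIM101 (-0.40), SMY2 (-0.39), ERS1 (-0.33), NUC1 (-0.32) and JHD1 (-0.23). SWD3 is a subunit of the COMPASS histone methyltransferase, JHD1 a histone demethylase and RIM101 a transcription factor of the response to pH, all in S. cerevisiae. Each of these 7 calls was lost when at least 1 replicate was left out.

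The interaction tested whether the change at 15 against 400 µg/L differed between the strains, as the change in sir2Δ minus the change in WT. It was called positive in 14 border genes and negative in 27, beside 7.50 percent and 9.71 percent of all genes, or 23.2% in either direction beside 17.2 percent. Upper-quartile scaling, which moved the median interaction of all genes to 0.10 on the log2 scale, gave 19 positive and 18 negative, beside 11.8 percent and 7.52 percent of all genes. By at least 1 log2 unit, 3 were positive and 4 negative, beside 1.47 percent and 3.29 percent of all genes. Leaving out library 1R gave 10 positive and 13 negative, and the shares of all genes in that setting are not given here. Nearer the ends the calls were 1 positive and 43 negative of 60 at ranks 1 to 5 and 1 positive and 43 negative of 118 at ranks 6 to 15.

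The positive interactions were led by ESF2 (1.20 ± 0.18, edgeR adjusted p = 0.0001856), RPC31 (1.13 ± 0.24, adjusted p = 0.003168) and SPB1 (1.01 ± 0.15, adjusted p = 0.0001627), all on the log2 scale. In these 3 genes the gap between sir2Δ and WT was smaller at 15 than at 400 µg/L. Set side by side, the log2 fold changes of sir2Δ against WT at 15 and 400 µg/L were -0.42 and -1.63 for ESF2, -0.02 and -1.14 for RPC31, and -0.86 and -1.87 for SPB1. NOG2, RIX7, KRR1, ECM1 and DIM1 had interactions of 0.75 to 0.99, and that of ECM1 became 0.59 without replicate 1 of WT at 400 µg/L (adjusted p = 0.0501 by edgeR). Of these 8 genes, 7 were called lower in sir2Δ at both levels, and RPC31 at 15 µg/L was not called. The WT levels of the 8 at 15 against 400 µg/L differed by -0.45 to 0.21, and ESF2 alone was called.

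The negative interactions were led by KLLA0_C00671g (-2.20 ± 0.24, edgeR adjusted p = 5.225e-06) and KLLA0_B00517g (-2.15 ± 0.15, adjusted p = 2.439e-08). KLLA0_C00671g had 47.1 and 43.4 CPM in sir2Δ at 15 µg/L, which is in the range of its sir2Δ levels at 400 µg/L, while it rose in WT. KLLA0_E24421g (-1.23 ± 0.14, adjusted p = 8.15e-06) had 71.6 and 69.4 CPM in sir2Δ at 15 µg/L and 64.4 and 60.4 CPM in sir2Δ at 400 µg/L, a difference that was not called (0.17 ± 0.10). KLLA0_D00682g (-0.99 ± 0.13) had 41.0 and 43.5 CPM in sir2Δ at 15 µg/L and 41.0 and 44.9 CPM in sir2Δ at 400 µg/L. In each of these genes except KLLA0_B00517g the sir2Δ change was not called. The calls of KLLA0_D00660g (-0.97) and of DAL3 (-0.88), which degrades allantoin in S. cerevisiae, were lost without single replicates and without library 1R.

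**Figure D4:**
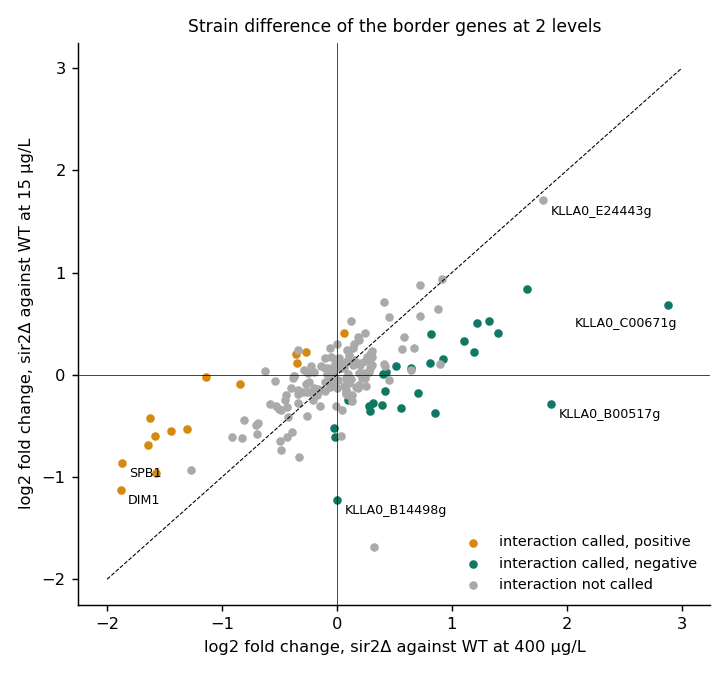
Log2 fold change of sir2Δ against WT for each tested border gene at 400 µg/L (horizontal axis) and at 15 µg/L (vertical axis), with the dashed line where both are equal. Orange dots are genes with a positive interaction call (14), green dots with a negative one (27) and grey dots have no call. The orange dots lie above the dashed line, mostly at the lower left with SPB1 and DIM1, and the green dots lie below it, with KLLA0_C00671g and KLLA0_B00517g at the right and KLLA0_B14498g at the bottom.

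The calls were spread over all chromosome ends. At 400 µg/L the low-numbered end of chromosome A had 6 genes called higher and 0 called lower in sir2Δ of 15 tested, while the high-numbered end of A had 1 higher and 4 lower. The low-numbered end of B had 3 higher and 6 lower, and the high-numbered end of E had 6 higher and 2 lower. In WT at 15 against 400 µg/L, the low-numbered end of C and the high-numbered end of D each had 6 higher and 0 lower, while the high-numbered end of A had 0 higher and 2 lower. These ends were picked for their counts. Others were more even at 400 µg/L, such as the high-numbered end of B (2 higher, 2 lower) and the low-numbered end of E (4 higher, 3 lower). Of all genes, 22.5 percent were called higher and 22.3 percent lower in sir2Δ at 400 µg/L. In WT at 15 against 400 µg/L the shares were 15.8 percent and 10.3 percent. With 13 to 15 tested genes an end, these counts are given as a description.

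**Figure D5:**
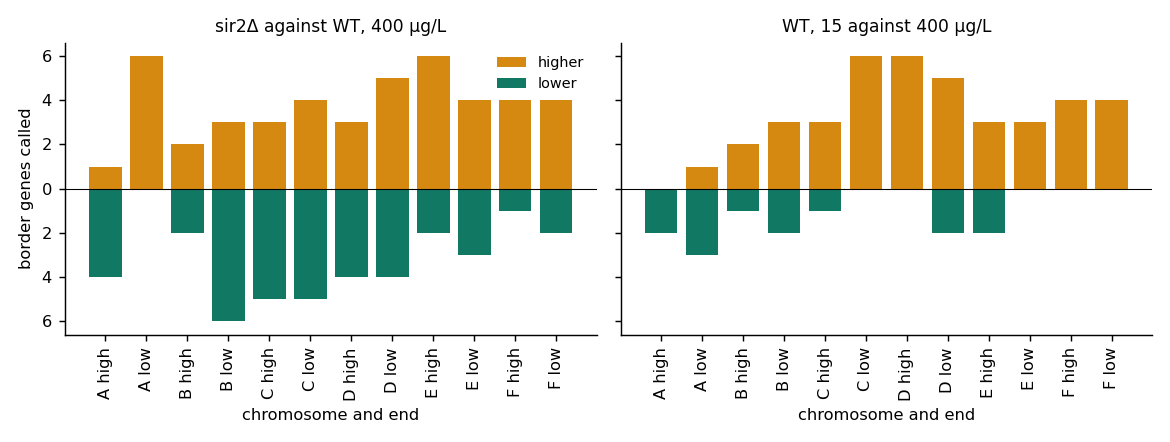
Number of border genes called at each of the 12 chromosome ends (horizontal axis, chromosome letter and low-numbered or high-numbered end), higher above 0 and lower below 0, for sir2Δ against WT at 400 µg/L (left) and WT at 15 against 400 µg/L (right). Every end has called genes in both panels, and the low-numbered end of A has 6 higher and 0 lower on the left. Of all genes tested, 22.5 percent were called higher and 22.3 percent lower on the left, and 15.8 percent and 10.3 percent on the right.

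Calls were also counted for border genes without and with a symbol. In sir2Δ against WT at 400 µg/L, 38.3% of the 47 without a symbol were called higher and 8.51% lower, beside 20.8% and 26.2% of the 130 with one. Among all genes tested the same split was 34.9% and 14.9% of 1202 without a symbol, beside 18.8% and 24.5% of 4022 with one. In WT at 15 against 400 µg/L, 44.7% of the border genes without a symbol were called higher, beside 29.3% of all such genes. Neither the difference between border genes without and with a symbol nor that from the genome was tested.

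A pair of comparisons that share no library was set side by side, sir2Δ against WT at 135 µg/L and WT at 15 against 400 µg/L. Of the border genes, 18 were called higher in both, which is 58.1% of the 31 in the first and 45.0% of the 40 in the second. Among all genes the shares were 42.2% and 44.1%. The 18 include KLLA0_B00517g, KLLA0_C00671g, KAR4, KLLA0_C18931g, HOM3, TRP3, HIS1 and the neighbours KLLA0_D00660g, KLLA0_D00682g and KLLA0_D00704g. Of the genes called lower, 4 were shared, namely RRD1, YHB1, ESF2 and KLLA0_D00550g, which is 14.3% of 28 and 30.8% of 13, and among all genes the shares were 9.6% and 14.3%. The comparison of sir2Δ with WT at 45 µg/L also shares no library with WT at 15 against 400 µg/L. There 17 border genes were called higher in both, or 44.7% of 38 and 42.5% of 40, beside 34.4% and 45.7% among all genes. Another 4 were called lower in both, or 12.5% of 32 and 30.8% of 13, beside 11% and 19.9% among all genes.

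None of the border genes belongs to the list of silencing factors, of which 17 were tested. At 400 µg/L, 2 of the 17 were called higher in sir2Δ (SUM1 and ESC1) and 6 lower (SIR2 itself, HST2, RLF2, RIF1, HST4 and SET1). The shares of all genes there were 22.5 percent and 22.3 percent. In WT at 15 against 400 µg/L, 5 of the 17 were called higher and 0 lower, beside 15.8 percent and 10.3 percent of all genes. The list was not tested as a set. The lists of sugar and lactose use, nitrogen permeases and catabolism, metal uptake, and mating and sporulation held 5 border genes. DAL3 and KAR4 are described above. FRE3, a ferric reductase gene, was called lower in sir2Δ at 400 µg/L (log2 fold change -0.26 ± 0.07) and at 135 µg/L (-0.25 ± 0.07). The glycerol kinase gene GUT1 (0.20 ± 0.17 at 400 µg/L) and CBR1, a cytochrome b5 reductase (-0.09 ± 0.08), were called in no comparison.

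In all, 121 of the 177 tested border genes were called in at least 1 of the 9 comparisons, or 68.4%, beside 68.4 percent of all genes, and 56 in none. The number called higher in sir2Δ at 1 level and lower at another was 7, or 3.95%, beside 1.82 percent of all genes.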

How the data were processed

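RNA was measured in 17 libraries of 8 groups. Per the labels' protocols it was poly(A)-selected and sequenced as paired reads. The deposited table gives read counts per gene as whole numbers, and per the submitters' processing notes the authors used cutadapt, Bowtie2 and featureCounts among other tools. Their versions, the genome build and the annotation are not given in the sources used, nor is the treatment of strand or of multiply matching reads, so reads of near-identical or antisense genes may be shared or lost. None of the border genes overlaps another gene in the reference table. The deposited normalized table holds a signal, which a check showed to be the counts over a size factor of each library, and was not used further. Names and gene order came from RefSeq assembly ASM251v1, and no coordinates are given.

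The counts went into the robust quasi-likelihood test of edgeR 4.0.16 (R 4.3.3), with TMM scaling, a filterByExpr minimum count of 10, 1 mean per group over 16 columns and 8 residual degrees of freedom. In WT at 400 µg/L, libraries 1 and 1R were summed as 1 replicate because they share a number. Fold changes are log2 values (prior count 0.125) ± SE, and CPM values use the TMM factors. The SE is the absolute log2 fold change divided by the square root of the test's F statistic. It is not the spread of the replicates of a group. Libraries 1 and 1R of WT and library 8 of sir2Δ carry the prefix RESUB in the labels, with no meaning given. There were 9 comparisons: sir2Δ against WT at each level, the lower levels against 400 µg/L in WT, 15 against 400 µg/L in sir2Δ, and the interaction. The test was checked on simulated counts with a shared mean for all groups apart from the changes put in. These counts held no distortion like that of library 1, so the check does not cover it. Alternatives were DESeq2 1.42.0, other scalings, no filter, single libraries or replicates left out, a fit of only the groups compared, and the replicate number as a block.

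The members and the gene lists were chosen with earlier results of these data known. Genes named are the up to 12 called with the highest and lowest fold changes in the 4 comparisons of strain or vitamin at 15 and 400 µg/L, up to 5 at each extreme in the other comparisons and up to 8 in the interaction, members of the lists, genes 1 log2 unit higher in both sir2Δ against WT at 400 µg/L and WT at 15 against 400 µg/L, the innermost such riser of each end, and genes with at most 10 reads. Others named, such as ATG4, ECM31, TIF35, HIS1 and members of runs, were chosen after their values were seen.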

Additional observations from a re-analysis of the deposited data

Results flagged for a closer look

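The interaction was called in 41 border genes, so that the change at 15 against 400 µg/L differed between sir2Δ and WT by a test of the difference itself (edgeR quasi-likelihood test of the interaction term). Values below are the log2 change in sir2Δ minus that in WT. The 8 highest were ESF2 (1.20), RPC31 (1.13), SPB1 (1.01), NOG2 (0.99), RIX7 (0.96), KRR1 (0.90), ECM1 (0.77) and DIM1 (0.75). Their sir2Δ levels rose at 15 µg/L, while in WT 7 of these 8 were not called and ESF2 fell. The fall of ESF2 in WT and the rises of RPC31 and ECM1 in sir2Δ lost their calls without single replicates. So did the interaction of ECM1.

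The 8 lowest were KLLA0_C00671g (-2.20), KLLA0_B00517g (-2.15), KLLA0_E24421g (-1.23), KLLA0_B14498g (-1.22), KLLA0_D00682g (-0.99), KLLA0_D00660g (-0.97), SYG1 (-0.89) and DAL3 (-0.88). All 8 rose in WT at 15 µg/L. In sir2Δ, KLLA0_B00517g rose as well, by 0.87, and KLLA0_B14498g fell by 0.43. The other 6 were not called in sir2Δ. The interaction calls of KLLA0_D00660g and DAL3 were lost without single replicates and without library 1R, and so was the WT call of KLLA0_D00660g without library 1R.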

How the results depend on the processing

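Of 146 results for named genes, 112 kept their call and direction in every alternative run and 34 lost the call in at least 1; none of the 1754 values changed direction, and 131 of them missed the threshold. Fitting only the groups compared called 97 border genes at 135 µg/L (59 in the full fit), 1 of 6 in WT at 135, 8 of 22 in WT at 45 and 33 of 53 in WT at 15 against 400 µg/L, and 51 against 30 in sir2Δ at 15 against 400 µg/L. Leaving out library 1R called 3 in WT at 135 against 400 µg/L and 23 of 41 in the interaction. Leaving out library 1 called 96 at 400 µg/L (83 in the full fit), 66 in WT at 15 against 400 µg/L and 48 in the interaction. The counts in this section are of border genes alone. Shares of all genes under these settings are not given here, so the counts do not show a change particular to the border genes.

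With 1 replicate left out, the lone replicate being assumed to vary like the other groups, the calls ranged from 66 to 77 at 400, 44 to 50 at 135, 57 to 70 at 45 and 42 to 48 at 15 µg/L for sir2Δ against WT. They ranged from 2 to 7 at 135, 10 to 20 at 45 and 39 to 51 at 15 against 400 µg/L in WT, from 21 to 24 in sir2Δ and from 28 to 38 in the interaction. The low ends were WT replicate 3 or 4 left out at 135 µg/L (2 calls each), replicate 1 of WT at 400 µg/L (3 calls) and WT replicate 6 at 45 µg/L (10 calls). These settings have fewer replicates or libraries, and no other cause was tested.

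The replicate numbers are shared between strains, but the labels do not say that a number marks a shared day. The deviations of same-numbered replicates correlated at -0.13, -0.10, 0.32 and 0.19 at 400, 135, 45 and 15 µg/L, so the numbers were not taken as pairs. With the replicate block, 98, 68, 76 and 65 border genes were called at 400, 135, 45 and 15 µg/L, and 47 in the interaction.

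The alternative without near-identical copies, the grouping by product words and the promoter motif search were not run, because protein, product and promoter tables were not used here.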
